A study of Homo sapiens with 2 samples.

Results

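The genes described here encode 10 subunits of the heterotrimeric G proteins, the switch proteins that pass a signal from a cell-surface receptor to enzymes inside the cell. They were taken by gene symbol from the counts of both libraries of the study, which hold 24462 symbols in all. The choice named 8 alpha subunits, GNAS, GNAI1, GNAI2, GNAI3, GNAQ, GNA11, GNA12 and GNA13, and 2 beta subunits, GNB1 and GNB2. Each was found on a single row, and all 10 reached the mean of 30 counts over both libraries that was required for a comparison, as did 11771 symbols in all. Messenger RNA was measured by QuantSeq 3' end sequencing in A549, an established human lung adenocarcinoma line grown in DMEM with fetal bovine serum. The question was how gene expression differs when ADGRF4 is silenced, a receptor of the adhesion class of G protein-coupled receptors. The control group is 1 library from cells given control siRNAs, and the silenced group is 1 library from cells given ADGRF4 siRNAs. For the siRNA sequences, their dose and the time after transfection, no value is given in the sources used here. There were no replicates, so every difference below is between 2 libraries, and calls of higher or lower rest on the size of the ratio.

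A heterotrimeric G protein consists of an alpha subunit, which binds GDP or GTP, and a tightly paired beta and gamma subunit. An activated receptor makes the alpha subunit exchange GDP for GTP, after which alpha and beta-gamma part and each acts on its own effectors until the alpha subunit hydrolyses its GTP. The alpha subunits fall into classes with different effectors: Gs stimulates adenylyl cyclase, Gi inhibits it, Gq stimulates phospholipase C beta and G12 acts on the cytoskeleton. Adhesion receptors such as ADGRF4 belong to the same superfamily as the hormone and mediator receptors that use these proteins in the lung epithelium.

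The far end of the alpha subunit reaches into the receptor and is known to set which class a receptor chooses, so the last 33 coding bases, 11 codons before the stop, are shown for each alpha member. They were read from GENCODE 29 transcripts on build GRCh38, are written 5′ to 3′ on the coding strand, and carry the fourth codon from the end in capitals.
GNAS (Gs): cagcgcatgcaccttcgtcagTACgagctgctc
GNAI1 (Gi): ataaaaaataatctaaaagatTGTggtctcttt
GNAI2 (Gi): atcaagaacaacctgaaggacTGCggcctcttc
GNAI3 (Gi): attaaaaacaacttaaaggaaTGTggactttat
GNAQ (Gq): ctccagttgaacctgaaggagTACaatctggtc
GNA11 (Gq): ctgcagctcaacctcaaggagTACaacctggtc
GNA12 (G12): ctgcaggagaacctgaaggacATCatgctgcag
GNA13 (G12): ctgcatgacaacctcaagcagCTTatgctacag
The 3 Gi genes carry a cysteine codon at the marked place, TGT or TGC, and this cysteine is the residue that pertussis toxin modifies. The 5 other genes have a codon for another amino acid there. GNAQ and GNA11 share 28 of the 33 bases, and GNA12 and GNA13 share 25. GNAI1 shares 23 with GNAI2 and 24 with GNAI3. GNAS shares between 9, with GNAI3, and 19, with GNAQ and with GNA11. On GRCh38 these stretches lie at chr20:58910794-58910826 (GNAS), chr7:80217458-80217490 (GNAI1), chr3:50257655-50257687 (GNAI2) and chr1:109592198-109592230 (GNAI3) on the plus strand. GNA11 lies at chr19:3121144-3121176 on the plus strand, and GNAQ at chr9:77721326-77721358, GNA12 at chr7:2731184-2731216 and GNA13 at chr17:65014260-65014292 on the minus strand. All are exonic, and all but those of GNAI2 and GNAI3 lie in the last exon of the transcript used. The counts themselves were made by the authors on hg19.

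The control library held 10396047 counts and the ADGRF4 siRNA library 9825320, and the 10 members took 0.0842% and 0.0691% of them. For ADGRF4 itself, 3 counts were read from control cells and 1 from silenced cells, with exact Poisson intervals of 0.619 to 8.77 and of 0.0253 to 5.57. Both values are at or under the floor of 3 counts, so its silencing was not detectable at this depth and its level does not check the labels. All 8 markers of A549 and simple epithelium were read, with 101413 and 108781 summed counts, most of them from KRT18 (58990 and 79367). The 8 differed in direction: KRT7 and KRT18 had ratios of 2.66 and 1.58, and KRT19 1.16, while KRT8 had 0.642, EPCAM 0.594, AKR1C1 0.341, CDH1 (1218 and 239 counts) 0.230 and AKR1B10 0.206. Their part in the results below was not tested. Of the leukocyte markers CD3E was at 0 counts in both libraries and the 5 together gave 273 and 210 counts, mostly from CD68, while the 3 endothelial markers gave 0 and 3 and the 5 fibroblast markers 50 and 57. Levels are given as counts per 1000000 (CPM) after scaling with the TMM factors of edgeR (trimmed mean of M values), and each ratio is the scaled level in the ADGRF4 siRNA library over that in the control library, with an exact (Clopper-Pearson) 95% interval. Reads copied by PCR are not independent molecules and none carry a molecular identifier, so all intervals cover counting error only. The libraries differed widely: among the 11771 compared symbols, the share at least 1.5-fold higher in the ADGRF4 siRNA library was 22.6% and the share at least 1.5-fold lower was 23.6%, and the ratio moved with the base composition of the 3' end.

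Against that background the subunits split in both directions. Counts come from whole cultures, in which fewer cells of a kind and less RNA per cell cannot be told apart. GNB2, GNAI1, GNAS and GNA13 were at least 1.5-fold lower in the ADGRF4 siRNA library, GNA11 was at least 1.5-fold higher, and GNAI2, GNAI3, GNAQ, GNA12 and GNB1 lay between. That is 4 of 10 lower, beside 23.6% of all compared symbols, and 1 of 10 higher, beside 22.6%. At 2-fold, 3 members were lower, beside 12.0% of all compared symbols, and 0 were higher, beside 9.29%. The median log2 ratio of the members, computed with 1 CPM added to each level, was -0.47, against -0.02 over all compared symbols, and their standard deviation on that scale was 1.19 against 0.77. GNB2, at -3.03 on that scale, lay furthest from the other members and added most to their spread. Levels in the control library ran from 20.8 CPM for GNA13 to 199 CPM for GNB1. In QuantSeq a transcript gives reads mainly at its 3' end whatever its length, so these levels need no division by length, though genes still differ in how well their 3' ends are read.

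**Figure D1:**
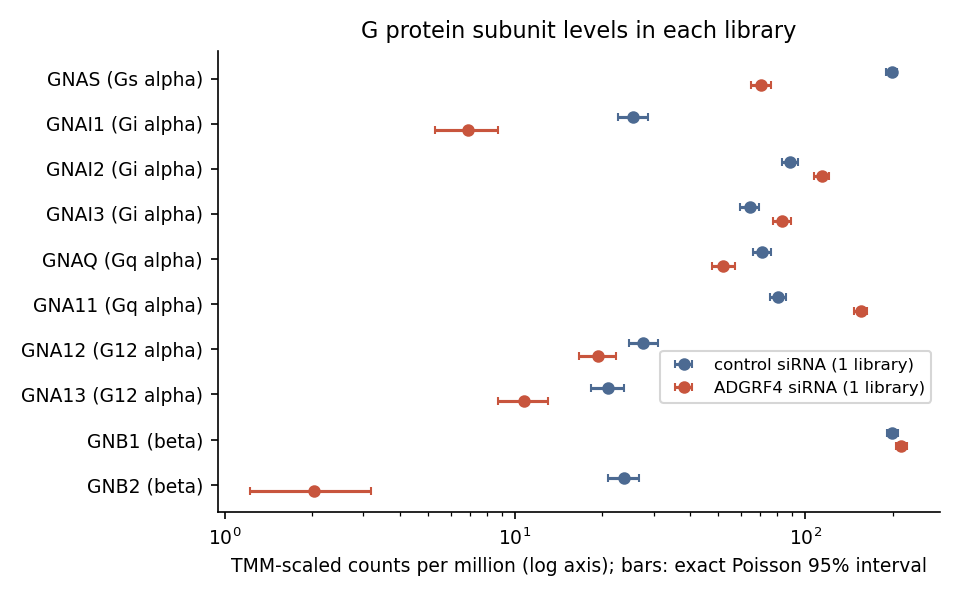
Level of each G protein subunit gene in the control siRNA and the ADGRF4 siRNA library, as TMM-scaled CPM on a log axis, with exact Poisson 95% intervals as bars. GNB2 shows the widest gap, from 23.8 to 2.04 CPM, while both GNB1 points lie near 200 CPM, at 199 and 214.

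**Figure D2:**
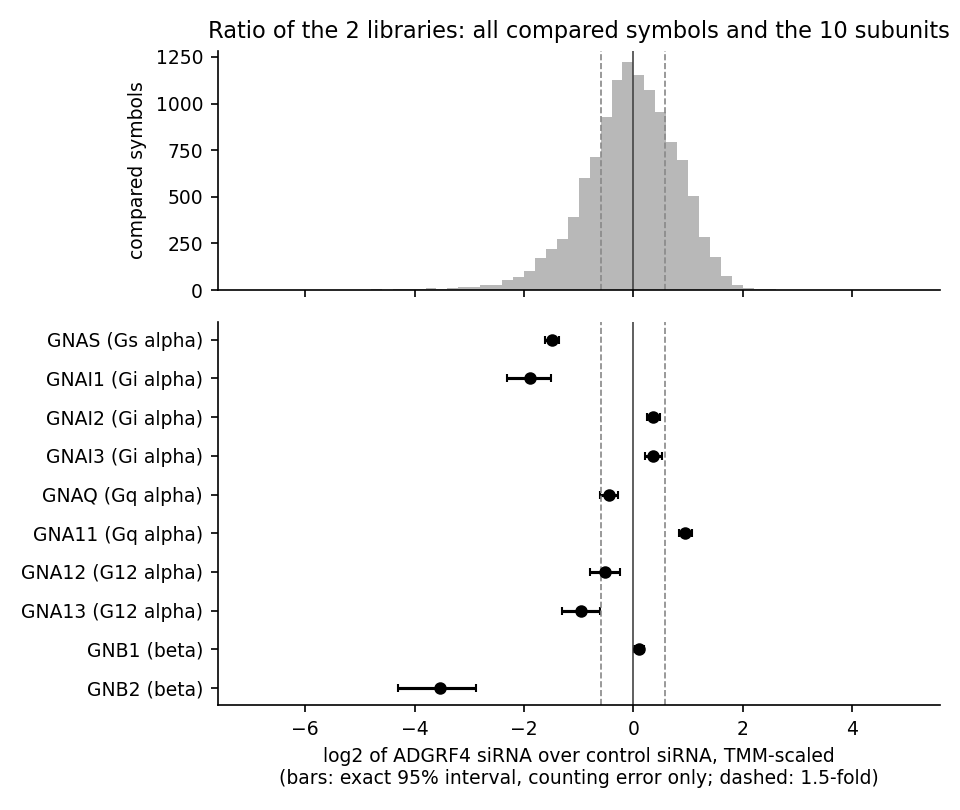
Upper panel, number of compared symbols by log2 ratio of the ADGRF4 siRNA over the control library; lower panel, the 10 subunit genes on the same axis with exact 95% intervals for counting error, and dashed lines at 1.5-fold. GNB2 lies in the far lower tail, where 33 of the 11771 symbols had a lower ratio, and GNA11 is the only member beyond the upper line.

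GNAS encodes the alpha subunit of Gs, which raises cyclic AMP by stimulating adenylyl cyclase. It gave 2172 control counts and 658 with ADGRF4 siRNAs, or 198 and 70.5 CPM, which is 2.81-fold lower (2.58 to 3.08). It was the most abundant of the 8 alpha transcripts in the control library, while in the ADGRF4 siRNA library GNA11, GNAI2 and GNAI3 all stood above it. A ratio lower than that of GNAS was found for 620 of the 11771 compared symbols. GNAS overlaps the antisense transcript GNAS-AS1, which had 3 and 1 counts. The count does not tell apart the several transcripts that start at different promoters of the GNAS locus and share its 3' end.

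The 3 Gi members, whose products inhibit adenylyl cyclase and release much of the cell's signalling beta-gamma, did not move together. GNAI1 had 279 and 64 counts, or 25.5 and 6.86 CPM, and was 3.72-fold lower (2.82 to 4.96) with ADGRF4 siRNAs. GNAI2 had 967 and 1063 counts, or 88.3 and 114 CPM, a ratio of 1.29 (1.18 to 1.41). GNAI3 had 705 and 775 counts, or 64.4 and 83.0 CPM, also a ratio of 1.29 (1.16 to 1.43). The least abundant of these 3 was thus the one with the much lower level, and the 2 abundant ones had a common ratio. That common ratio is lost when ratios are centred on 3' GC content, as described below, where GNAI2 stands at 0.860 and GNAI3 at 1.62. Within a library, where no scaling between libraries enters, there were 3.47 GNAI2 counts per GNAI1 count in the control and 16.6 in the ADGRF4 siRNA library, a 4.79-fold difference (3.58 to 6.48). That difference still carries the trend with 3' GC content, which is 55% for GNAI2 and 25.3% for GNAI1. Centred on it, GNAI2 stood at 0.860 and GNAI1 at 0.379. GNAI3 counts per GNAI2 count were 0.729 in both, and their quotient was 1.00 (0.872 to 1.15). Summed, the transcripts of the 3 Gi members stood at 178 and 204 CPM, a ratio of 1.14 (1.07 to 1.22). GNAI1 supplied 14.3% of the counts of these 3 (12.8 to 15.9, exact binomial 95% interval) in the control library and 3.36% (2.60 to 4.28) in the other.

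GNAQ and GNA11 encode the near-identical Gq class subunits that stimulate phospholipase C beta, and they went opposite ways. GNA11, at 882 control counts and 1449 with ADGRF4 siRNAs, or 80.6 and 155 CPM, was 1.93-fold higher (1.77 to 2.10). GNAQ had 778 and 487 counts, or 71.1 and 52.2 CPM, and lay 1.36-fold lower (1.21 to 1.53), short of the 1.5-fold line. Centred on 3' GC content, as described below, GNAQ was only 1.10-fold lower, and GNA11 was 1.98-fold higher. The pair was nearly balanced in the control library, with 1.13 GNA11 counts per GNAQ count, and GNA11 dominated in the ADGRF4 siRNA library with 2.98. The quotient of these ratios, free of the scaling between libraries, was 2.62 (2.27 to 3.03). GNA11 made up 53.1% of Gq class counts (50.7 to 55.6) in the control and 74.8% (72.9 to 76.8) with ADGRF4 siRNAs. Summed, the class stood at 152 and 207 CPM, a ratio of 1.37 (1.28 to 1.46).

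GNA12 and GNA13, the G12 class, signal to the actin cytoskeleton and were the least abundant class. GNA13 had 228 and 100 counts, or 20.8 and 10.7 CPM, and was 1.94-fold lower (1.53 to 2.48) in the ADGRF4 siRNA library. GNA12 had 303 and 180 counts, or 27.7 and 19.3 CPM, and lay 1.44-fold lower (1.19 to 1.74). GNA13 passed the 1.5-fold line and GNA12 did not, and their intervals overlap. The number of GNA12 counts per GNA13 count was 1.33 in the control and 1.80 in the ADGRF4 siRNA library, and the interval of the quotient, 0.994 to 1.85, includes 1. The sum of the class, 531 and 280 counts, was 1.62-fold lower (1.40 to 1.88). Centred on 3' GC content, as described below, GNA12 was only 1.20-fold lower and GNA13 1.51-fold lower.

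The 8 alpha members as a pool had 6314 counts in the control library and 4776 in the ADGRF4 siRNA library. That is 577 and 512 CPM. Left out of it are GNAL, of the Gs class, with 316 and 291 counts, and GNAZ, of the Gi class, with 100 and 52. Gs in the pool is thus GNAS alone. The pool differed by a ratio of 0.887 (0.854 to 0.921), less than most of its members did, while its make-up was different. GNAS supplied 34.4% of the alpha counts (33.2 to 35.6) in the control library and 13.8% (12.8 to 14.8) in the other, and GNA11 supplied 14.0% (13.1 to 14.8) and 30.3% (29.0 to 31.7). By class, the share of Gs counts was thus 34.4% and 13.8%, that of Gi 30.9% and 39.8%, that of Gq 26.3% and 40.5%, and that of G12 8.41% and 5.86%. GNAI2 counts per GNAS count were 0.445 and 1.62, a quotient of 3.63 (3.20 to 4.11). By counts of these 8 members, the control pool was led by Gs and the ADGRF4 siRNA pool by Gq and Gi. Shares and quotients within a library still carry the trend with 3' GC content described below. Centred on it, GNAS was 2.35-fold and GNAI2 1.16-fold lower, while GNA11 was 1.98-fold higher. The shares are of messenger RNA, and protein was not measured.

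**Figure D3:**
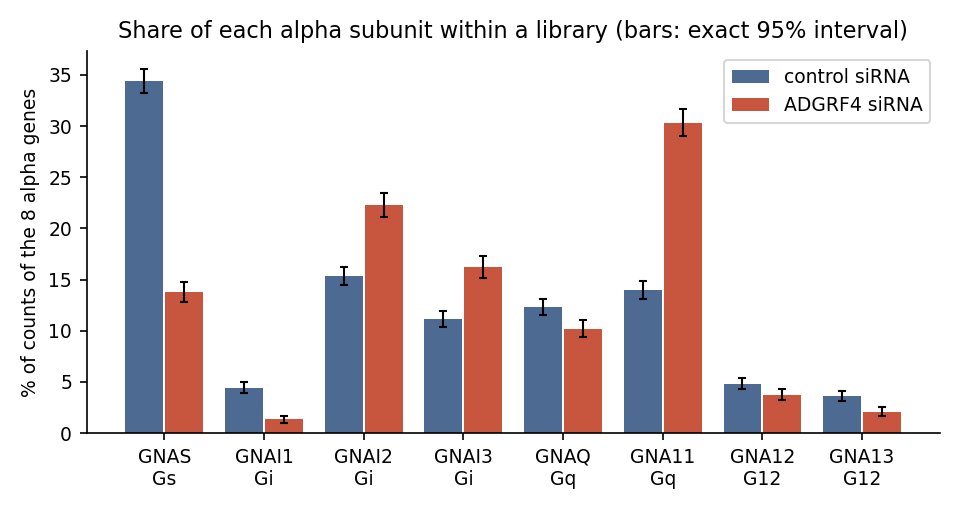
Share of each alpha subunit gene in the summed counts of the 8 alpha genes, in percent, for the control siRNA and the ADGRF4 siRNA library, with exact binomial 95% intervals. The GNAS share is 34.4% in the control and 13.8% in the ADGRF4 siRNA library, and that of GNA11 is 14.0% and 30.3%.

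GNB1 and GNB2 encode beta subunits, which fold as propellers, pair for life with a gamma subunit and serve alpha subunits of all classes. GNB2 gave 260 control counts and 19 with ADGRF4 siRNAs, or 23.8 and 2.04 CPM, and was 11.7-fold lower (7.32 to 19.7). This was the lowest ratio of any member, and 33 of the 11771 compared symbols had a lower one. GNB1 had 2182 and 1999 counts, or 199 and 214 CPM, a ratio of 1.07 (1.01 to 1.14) that falls below 1 if the libraries are scaled by their total counts alone. GNB1 counts per GNB2 count were 8.39 in the control and 105 in the ADGRF4 siRNA library, a quotient of 12.5 (7.83 to 21.2). Because GNB1 was so much the more abundant, the sum of both genes differed little, at 223 and 216 CPM, a ratio of 0.969 (0.913 to 1.03). GNB2 supplied 8.43% (7.47 to 9.46) of the counts of the 5 beta genes in the control and 0.767% (0.462 to 1.19) in the other library, and GNB1 70.7% (69.1 to 72.3) and 80.7% (79.1 to 82.2).

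The ratios were set against GC content at the 3' end (the final 300 bases of the transcript), which was available for 11530 compared symbols (98.0%). The transcript was the longest protein-coding one of each gene, where there was one. Its annotated end need not be the end that was read. For GNAI1 and GNAS it was not the transcript whose coding end is shown above. Across 20 bins of rising GC content, the median log2 ratio went from -0.35 in the bin with the least GC to 0.83 in the bin with the most. GNAI1 has 25.3% GC there, GNAS 34.7%, and both lie in bins with a negative median. GNB2, with 57.7% GC, lies in a bin with a median of 0.72, so its direction is opposite to that of its bin. Centred values start from log2 ratios with 1 CPM added, which shrinks the ratio of low genes, so they are not on the scale of the folds above. Centred on the bin median, GNB2 was 13.4-fold lower, and 2 of the 11530 symbols had a lower centred value. In the same terms GNAI1 was 2.64-fold, GNAS 2.35-fold and GNA13 1.51-fold lower, and GNA11 was 1.98-fold higher. Centring moved GNAI2 across 0, from a log2 ratio of 0.37 to -0.22, and put GNAI3 at 1.62-fold higher. The annotated end of the GNAI3 transcript used, 27174 bases long, runs into the genes AMPD2 and GNAT2, so its GC value may not be that of the end that was read. AMPD2, on the same strand, had 318 and 467 counts.

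**Figure D4:**
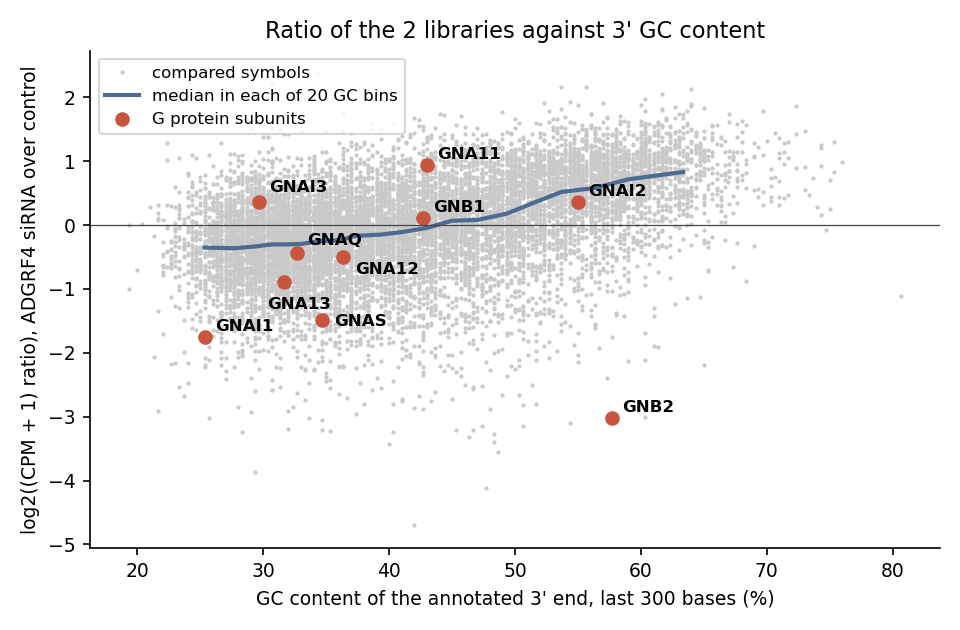
Log2 ratio of the ADGRF4 siRNA over the control library, with 1 CPM added to each level, against 3' GC content in percent (final 300 annotated bases), for all compared symbols as grey points with the bin medians and the 10 subunit genes marked. The medians go from -0.35 to 0.83 from low to high GC, and GNB2 lies far below the median of 0.72 in its bin.

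No member shared an exact run of 35 bases or more with another gene in the last 300 annotated bases of its transcript. QuantSeq mainly reads the 3' end, but the annotated end used, as for GNAI3, may not be the one that was read. Runs of that length were found in the coding parts of 8 members, among them runs shared by GNB1 with GNB2, by GNA12 with GNA13 and by GNAQ with its pseudogene GNAQP1. Reads from those parts could be counted for either gene. GNAI1, GNAI2, GNAQ, GNA12, GNA13, GNB1 and GNB2 have no annotated gene overlapping their exons. GNA11 is overlapped on the other strand by AC005262.2 and KF456478.1, which were not matched to a counted symbol. Whether the counting used the strand is not stated, so reads of a gene and of one on its other strand cannot be told apart.

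Of the 3 other beta genes and 8 other alpha genes, 2 each were compared, and GNAZ was the 1 beyond the 1.5-fold line. This stands beside 22.6% of all compared symbols higher and 23.6% lower. GNB4 had 239 and 145 counts, and GNB5, a beta subunit that pairs with a family of RGS proteins, had 382 and 281, with ratios of 0.712 and 0.863. GNB4 passed the line under total-count scaling. GNAZ, a Gi class subunit resistant to pertussis toxin, was 1.64-fold lower (1.16 to 2.34) at 100 and 52 counts. GNAZ overlaps RSPH14 on the other strand, which had 71 and 88, and it was not compared with a limit of a mean of 100 counts. GNAL, the Gs class subunit named for olfactory neurons, had 316 and 291 counts and a ratio of 1.08. The Gq class genes GNA14 and GNA15 and the sensory alpha subunits GNAT1 and GNAT3 had 0 counts in both libraries.

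Among the 12 gamma genes, whose products anchor beta-gamma to the membrane by a prenyl group, 6 were compared, of which 2 were at least 1.5-fold higher and 2 at least 1.5-fold lower. GNG4, with 306 and 471 counts, was 1.81-fold higher (1.56 to 2.09), and GNG13, with 44 and 127, was 3.39-fold higher (2.39 to 4.89). GNG5, with 1163 and 512 counts, was 1.94-fold lower (1.74 to 2.15), and GNG10, with 521 and 219, was 2.03-fold lower (1.73 to 2.39). In its last 300 bases GNG5 shares exact runs, the longest of 279 bases, with 3 other genes. How reads from such runs were counted is not stated. GNG11 and GNG12 lay between, with ratios of 1.23 and 1.11. Centred on 3' GC content the 4 calls stood, GNG13 at 1.64-fold higher, and GNG11 joined at 1.56-fold higher. CHTF18, which overlaps GNG13 on the other strand, also had more counts with ADGRF4 siRNAs, 246 against 91. The counts of GNG10 equal those of the read-through gene DNAJC25-GNG10 in both libraries, so the same reads appear to stand under both symbols. As with the alpha pool, the gamma sum differed less than its parts, with 328 and 312 CPM and a ratio of 0.952 (0.906 to 1.00). GNG5 supplied 32.4% of gamma counts in the control and 17.6% with ADGRF4 siRNAs, and GNG11 27.9% and 36.0%. Over all 33 alpha, beta and gamma genes, 20 were compared, of which 3 were higher and 7 lower at 1.5-fold, beside 22.6% and 23.6% of all compared symbols, with a median log2 ratio of -0.32.

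The lists that follow are read beside the same background, 22.6% of all compared symbols higher and 23.6% lower at 1.5-fold, or 15.0% and 19.1% once centred on 3' GC content. Before it can signal, a subunit must be folded and joined to the membrane. Of the 3 folding and assembly genes 2 were at least 1.5-fold lower, beside 23.6% of all symbols. PDCL, which helps assemble beta-gamma, was 3.30-fold lower (2.21 to 5.07) at 120 and 31 counts. RIC8B, a chaperone of Gs class alpha subunits, was 1.75-fold lower (1.31 to 2.36) at 146 and 71 counts, while RIC8A, which serves the other classes, had 908 and 729 and a ratio of 0.942. Centring on 3' GC content left PDCL lower, at 2.15-fold, and ended the call of RIC8B, at 1.35-fold. With a limit of a mean of 100 counts PDCL was not compared. Of the 9 lipid modification genes 7 lay between. PGGT1B, a subunit of the enzyme that prenylates most gamma subunits, was 4.73-fold lower (2.47 to 9.97) at 61 and 11 counts. NMT2, which attaches myristate to Gi class subunits, was 1.51-fold higher (1.36 to 1.68), and NMT1 had a ratio of 1.48. ZDHHC3 and ZDHHC7, which attach palmitate to alpha subunits, had ratios of 1.02 and 0.793. NMT2 lost its call under total-count scaling and under scaling by the upper quartile of counts. Under total-count scaling ICMT, which methylates prenylated proteins, became lower, and centring made FNTB, a farnesyltransferase subunit, 1.72-fold lower. With a limit of a mean of 100 counts PGGT1B was not compared.

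RGS proteins speed up GTP hydrolysis by the alpha subunit, and 7 of 21 listed were compared. Beside 22.6% and 23.6% of all symbols, 0 were at least 1.5-fold higher and 2 at least 1.5-fold lower: RGS2, known for acting on Gq, at 225 and 96 counts (2.0-fold, 1.57 to 2.56), and RGS19, at 89 and 34 (2.23-fold, 1.49 to 3.42). RGS10, RGS14 and RGS17 lay between, with ratios of 0.729, 0.721 and 1.05. Under total-count scaling RGS10 and RGS14 joined them, beside 29.5% of all symbols lower. Centred on 3' GC content, RGS3 and RGS14 joined instead, beside 19.1%. Among the 6 compared activators of G protein signalling, which act on the alpha subunit without a receptor, 2 were higher and 3 lower, beside 22.6% and 23.6% of all symbols. NUCB1, a calcium-binding protein that binds Gi alpha subunits, was 3.06-fold higher (2.91 to 3.21) at 2194 and 5720 counts, and its paralogue NUCB2 was 1.70-fold lower (1.57 to 1.83) at 2063 and 1037. GPSM2, which links Gi alpha to the mitotic spindle, was 2.35-fold lower (1.75 to 3.20), and CCDC88A, or girdin, was 1.90-fold lower (1.76 to 2.05). On the other strand, CLCC1 overlaps GPSM2 and had 385 and 184 counts, beside 171 and 62 for GPSM2. GPSM1 was 1.73-fold higher (1.36 to 2.20) at 118 and 174 counts. It overlaps DNLZ on the other strand, with 96 and 176. PCP2 lay between, with a ratio of 1.15 at 93 and 91 counts, and overlaps PET100 on the other strand, with 694 and 690. Centring on 3' GC content ended the calls of GPSM1 (1.12-fold higher), CCDC88A (1.47-fold lower) and NUCB2 (1.42-fold lower), made PCP2 1.57-fold lower, and left NUCB1 2.04-fold higher and GPSM2 1.83-fold lower.

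Adenylyl cyclases make cyclic AMP and are the effectors of Gs and Gi. Of 5 compared, 4 lay below the lower 1.5-fold line and 0 above the upper, beside 23.6% and 22.6% of all symbols, with a median log2 ratio of -0.76, or -0.42 when centred on 3' GC content. ADCY6, one of the cyclases that Gi inhibits, was 5.54-fold lower (3.44 to 9.37) at 130 and 20 counts, and ADCY9 was 3.89-fold lower (2.50 to 6.26) at 114 and 25. ADCY1 was 1.77-fold lower (1.35 to 2.33) and ADCY7 1.55-fold lower (1.18 to 2.03). ADCY3 lay between, with a ratio of 1.24. Centred on 3' GC content, ADCY6 and ADCY9 were lower and ADCY1 and ADCY7 lost their calls. With a limit of a mean of 100 counts, 3 cyclases were compared, ADCY6 and ADCY9 not among them, and ADCY1 and ADCY7 were lower. Reads at the end of ADCY7 cannot be told apart from those of BRD7 on the other strand, which had 2109 and 2238 counts.

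**Figure D5:**
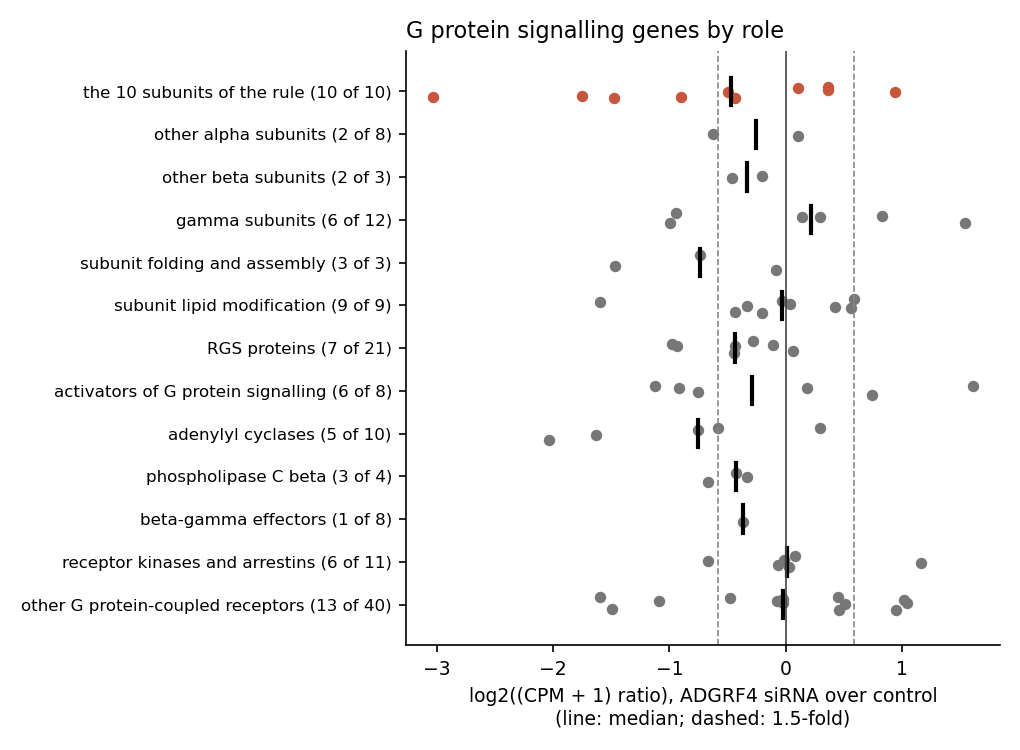
Log2 ratio of the ADGRF4 siRNA over the control library, with 1 CPM added to each level, for each compared gene of the G protein signalling lists described in the text, grouped by role, with the list median as a line and dashed lines at 1.5-fold. The cyclases lie mostly to the left, with a median of -0.76, while the receptors lie on both sides of 0 with a median of -0.02.

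Phospholipase C beta, the effector of Gq, was represented by 3 compared genes. PLCB3 was 1.62-fold lower (1.35 to 1.95) at 344 and 181 counts, and PLCB1 and PLCB4 had ratios of 0.780 and 0.733. PLCB4 passed the line under total-count scaling. Of the beta-gamma effectors, PIK3CB was the 1 of 8 listed that could be compared, with a ratio of 0.764.

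Receptors and the proteins that silence them completed the pathway. Of the 6 compared receptor kinases and arrestins, GRK6 was 2.26-fold higher (2.04 to 2.51), GRK5 was 1.69-fold lower (1.22 to 2.37), and both beta-arrestins lay near 1, ARRB1 with a ratio of 0.992 and ARRB2 with 1.02. The kinases GRK2 and GRK3, counted under ADRBK1 and ADRBK2, had ratios of 1.06 and 0.948. GRK6 overlaps F12 on the other strand, whose counts were 610 and 1060 beside 561 and 1081 for GRK6. Both calls ended when centred on 3' GC content, with GRK6 at 1.36-fold higher and GRK5 at 1.30-fold lower, while ADRBK1 became 1.68-fold lower. GRK5 was not compared with a limit of a mean of 100 counts. Of 40 listed receptors 13 were compared, of which 4 were at least 1.5-fold higher and 3 lower, beside 22.6% and 23.6% of all symbols. OXTR, the oxytocin receptor and a Gq class receptor, was 4.21-fold lower (2.44 to 7.72) at 79 and 16 counts, and ADORA1, a Gi class adenosine receptor, was 2.35-fold higher (1.41 to 4.0) at 24 and 48. LTB4R, for leukotriene B4, was 2.05-fold higher (1.83 to 2.31), and its annotated exons overlap those of LTB4R2. P2RY11, for ATP, was 2.07-fold higher (1.92 to 2.23) at 1055 and 1860 counts, close to the 1201 and 1930 of EIF3G, which overlaps it on the other strand. The bradykinin receptor BDKRB2 and the thrombin receptor F2R lay between, with ratios of 1.40 and 0.693. Centred on 3' GC content, 1 receptor was higher and 4 were lower: LTB4R was 1.93-fold higher and OXTR 2.73-fold lower, while P2RY11, at 1.16-fold, and ADORA1, at 1.08-fold higher, lost their calls. At a mean of 100 counts or more, 4 receptors were compared, OXTR and ADORA1 not among them. Of those 4 receptors, 2 were higher and 0 lower, beside 23.2% and 20.8% of all symbols.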

How the data were processed

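The authors deposited raw counts of reads per gene symbol for each library, not normalized. Bowtie2, edgeR and the build hg19 are named, per the submitters' processing notes. Of their roles, the annotation, the strand setting and the handling of reads that match several genes, nothing is given in the sources used here. Total RNA was made into libraries with the Lexogen QuantSeq kit, per the labels' protocols. The 25737 rows hold 24462 symbols, and the rows of 286 repeated symbols, none a member, were summed.

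From these counts, TMM factors were computed with edgeR 4.0.16 in R 4.3.3. A symbol was compared if it had 30 counts or more on average, and called at 1.5-fold or 2-fold. With 1 library per group no test was made. Intervals are at 95% and cover counting error only. Medians use log2 of CPM with 1 added, which understates the difference of low genes. The members and the 13 lists of 144 other genes, all matched, were chosen with earlier results of these data known. The result of 1 list is not reported here. All members are named, and from each list reported all compared genes or, above 6, the 4 most abundant and the highest and lowest ratio; genes singled out for overlap, at 0 counts or by an alternative were chosen after their values were seen. GENCODE 29 on GRCh38 gave 3' GC content, overlaps and the coding ends, so no coordinates on hg19 are printed. Shared runs were sought with BLAST+ 2.17.0. Alternatives were other scalings, pseudocounts, count limits and fold limits, thinning of the control library, centring on 3' GC content and keeping 1 row per symbol. Calculations ran in Python 3.11.15 with scipy 1.17.1, pandas 2.3.3, numpy 2.4.6 and biopython 1.88, and were tested on simulated data.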

Additional observations from a re-analysis of the deposited data

How the results depend on the processing

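GNAS, GNAI1, GNA13, GNB2 and GNA11 kept their side of the 1.5-fold line under the 3 other scalings, the thinned control library and centring on 3' GC content. The other pseudocounts, count limits and row choice could not change a member's call. The number of members at least 1.5-fold higher was 1, but 0 at the 2-fold limit and 2 when centred on 3' GC content, where GNAI3 joined. Centring also moved the median log2 ratio of the members from -0.47 to -0.24. Under total-count scaling GNAQ and GNA12 joined the members that were lower, which made 6. That scaling moved the median of all compared symbols from -0.02 to -0.16, and 17.3% of them were then higher and 29.5% lower, against 22.6% and 23.6%. GNB1 had a log2 ratio of -0.04 there and 0.10 with TMM. No paired analysis was possible because each group has 1 library, and no replicate could be left out. The depth limits ADGRF4 and GNB2, which had 1 and 19 counts in the ADGRF4 siRNA library. Differences between cultures, transfections or library preparations cannot be told apart from the siRNA.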
